A study of Mus musculus with 14 samples.

Results

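The bile salt transporters of the hepatocyte and the bile acid sensor FXR were examined in livers of mice whose trunk was compressed. The genes were chosen by name, 10 of 19505 genes named on the array, and each was read by 1 probe set, so that no choice between probe sets arose. They were sorted by role into 3 uptake transporters (Slc10a1, Slco1b2 and Slc10a2), 3 canalicular export pumps (Abcb11, Abcb4 and Abcc2), 2 basolateral export pumps (Abcc3 and Abcc4) and 2 sensors (Nr1h4 and Nr0b2). Liver RNA was measured in 14 male C57BL/6N mice aged 10 weeks, with a Clariom S array for every animal. Mice of the compression group (n = 7) wore adjustable clothes tightened around the trunk, and mice of the no-compression group (n = 7) wore them untightened. All mice had free access to chow, had become used to the clothes beforehand and were briefly anesthetized with isoflurane when the clothes were fitted or changed. The study reports that the compression group ate less and lost more weight during the load than the no-compression group. The part of food intake in the differences between the groups was not tested. The livers were taken 8 hours after the load began, in the light period, when mice are inactive.

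Hepatocytes take bile salts up from portal blood and pump them into the bile canaliculus, and most of these bile salts come back from the intestine. NTCP, the product of Slc10a1, carries conjugated bile salts into the cell together with sodium, and the product of Slco1b2 carries bile salts and other organic anions in without sodium. BSEP, the product of Abcb11, exports bile salts into the canaliculus. Bile acids that accumulate activate FXR (Nr1h4), a nuclear receptor that induces Abcb11 and the corepressor SHP (Nr0b2), and SHP restrains bile acid synthesis.

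FXR binds DNA with its partner RXR, preferably at an inverted repeat, the half-site AGGTCA, any 1 base and the reverse complement TGACCT. The 250 bases upstream of the transcription start are shown for Abcb11 and Nr0b2, which FXR is known to induce, and for Slco1b2, which was added after the search because it holds a similar repeat. The sequences are those of RefSeq on the build GRCm38.p6, written 5′ to 3′ on the strand of the gene, with a stretch that differs from the repeat at no more than 1 fixed base in capitals.
Abcb11, chr2:69342617-69342866, minus strand: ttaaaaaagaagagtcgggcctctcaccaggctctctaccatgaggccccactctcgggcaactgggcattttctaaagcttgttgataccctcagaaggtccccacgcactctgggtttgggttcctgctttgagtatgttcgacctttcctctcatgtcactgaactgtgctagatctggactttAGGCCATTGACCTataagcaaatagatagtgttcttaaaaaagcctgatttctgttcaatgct
Slco1b2, chr6:141629268-141629517, plus strand: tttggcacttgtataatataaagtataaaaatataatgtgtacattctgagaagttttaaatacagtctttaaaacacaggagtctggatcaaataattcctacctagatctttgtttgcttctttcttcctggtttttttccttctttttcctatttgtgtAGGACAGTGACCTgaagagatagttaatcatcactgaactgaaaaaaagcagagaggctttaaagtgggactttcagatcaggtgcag
Nr0b2, chr4:133553126-133553375, plus strand: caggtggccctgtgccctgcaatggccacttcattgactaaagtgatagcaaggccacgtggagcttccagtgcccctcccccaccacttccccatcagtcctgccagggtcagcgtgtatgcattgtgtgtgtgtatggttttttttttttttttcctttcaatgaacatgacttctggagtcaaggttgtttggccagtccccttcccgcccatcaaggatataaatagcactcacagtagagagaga

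Promoters of 9 of the 10 genes were in the RefSeq table, 11 in all, each of 250 bases before and 50 after a start. The stretch of Abcb11 lies 63 to 51 bases upstream and differs from the repeat by T4C, and that of Slco1b2 lies 88 to 76 bases upstream and differs by T4A, with positions counted from 1 at the 5′ end of the repeat. A repeat this close was found in 27 of all 32851 promoters of the same length (0.0822%). The nearest match in Nr0b2 had 4 mismatches, so nothing is in capitals there. The repeat reads the same on both strands. The half-site AGGTCA, searched on both strands and contained in the repeat, was found in 5 of the 11 promoters (of Abcb11, Slco1b2, Nr1h4, Slc10a1 and Abcc2) and in 16.3% of all promoters. These matches describe letters in the window and were not tested as binding sites.

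The deposited log2 values come from qFarms, which summarizes the probes of each probe set and flattens those sets whose probes do not move in common. Of 22206 probe sets tested, 1238 had an SD over the 14 arrays above 0.01, called spread here, and among the 10 genes 9 had spread. The array medians lay between 6.51 and 6.52. The number of arrays limits the precision, and levels of different probe sets are not compared. In a principal component analysis of the 1238 sets the first axis held 57.1% of the variance, and on it no-compression replicates 3, 6 and 7 lay between 9.45 and 16.7, the other no-compression livers between −6.73 and −3.34 and the compression livers between −4.35 and 2.25, so the 9 genes with spread are given with and without these 3 mice. The 10 hepatocyte markers, among them Alb and Ttr, had means between 11 and 13.39, and 8 of them had no spread. Of 8 Kupffer cell markers 4 had spread. The list, markers without spread included, had a mean level of 8.12 to 8.26 with compression and 8.14 to 8.35 without it. Marco was at 6.97 to 7.59 with compression, and without it at 7.33 to 8.16 in replicates 3, 6 and 7 and at 6.99 to 7.17 in the others. Cd5l was at 9.48 to 9.66 with compression. Without it Cd5l was at 9.54 to 9.83 in these replicates and at 9.47 to 9.59 in the others. For Vsig4 the ranges in the same order were 8.61 to 8.71, 8.65 to 8.71 and 8.63 to 8.68. For C1qb they were 8.42 to 8.66, 8.43 to 8.65 and 8.48 to 8.6. Unlike for Marco, these replicates and the others overlapped for Cd5l, Vsig4 and C1qb. Of 6 sinusoidal endothelial markers 1 had spread, Lyve1, at 7.84 to 8.70 with compression, and without it at 8.43 to 8.6 in these replicates and at 7.91 to 8.14 in the others. Of 6 stellate cell markers 1 had spread, Dcn, at 10.51 to 10.74 with compression and 10.53 to 10.64 without it. The part of these cells in the values of the transporters and sensors was not tested. In whole liver, fewer cells of a type and less RNA per cell cannot be told apart.

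No bile salt transporter or sensor passed the adjustment over all probe sets, and the intervals of Abcb11 and Nr1h4 alone left out 0 before it. In limma 0 of the 10 genes passed an adjusted p of 0.05, as did 0% of the 22206 probe sets, and the adjusted p of the genes lay between 0.943 and 0.996. Of the 9 genes with spread, 6 had a higher and 3 a lower mean with compression, where of the 1238 probe sets with spread 48.3% were higher and 51.7% lower. An unadjusted p under 0.05 was reached by 2 of the 10, Abcb11 as lower and Nr1h4 as higher, against 5.19% of all probe sets and 7.43% of those with spread (4.85% as higher and 2.58% as lower). The groups overlapped for all 10 genes, and they were apart for 0.0766% of all probe sets and 0% of those with spread. Without no-compression replicates 3, 6 and 7 the split was 3 higher and 6 lower, where 46% of the probe sets with spread were higher. Abcb11, Abcc2, Abcc3, Nr1h4 and Nr0b2 are among the genes that the study chose as DEGs on these same arrays, so that their directions here are no independent evidence.

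**Figure D1:**
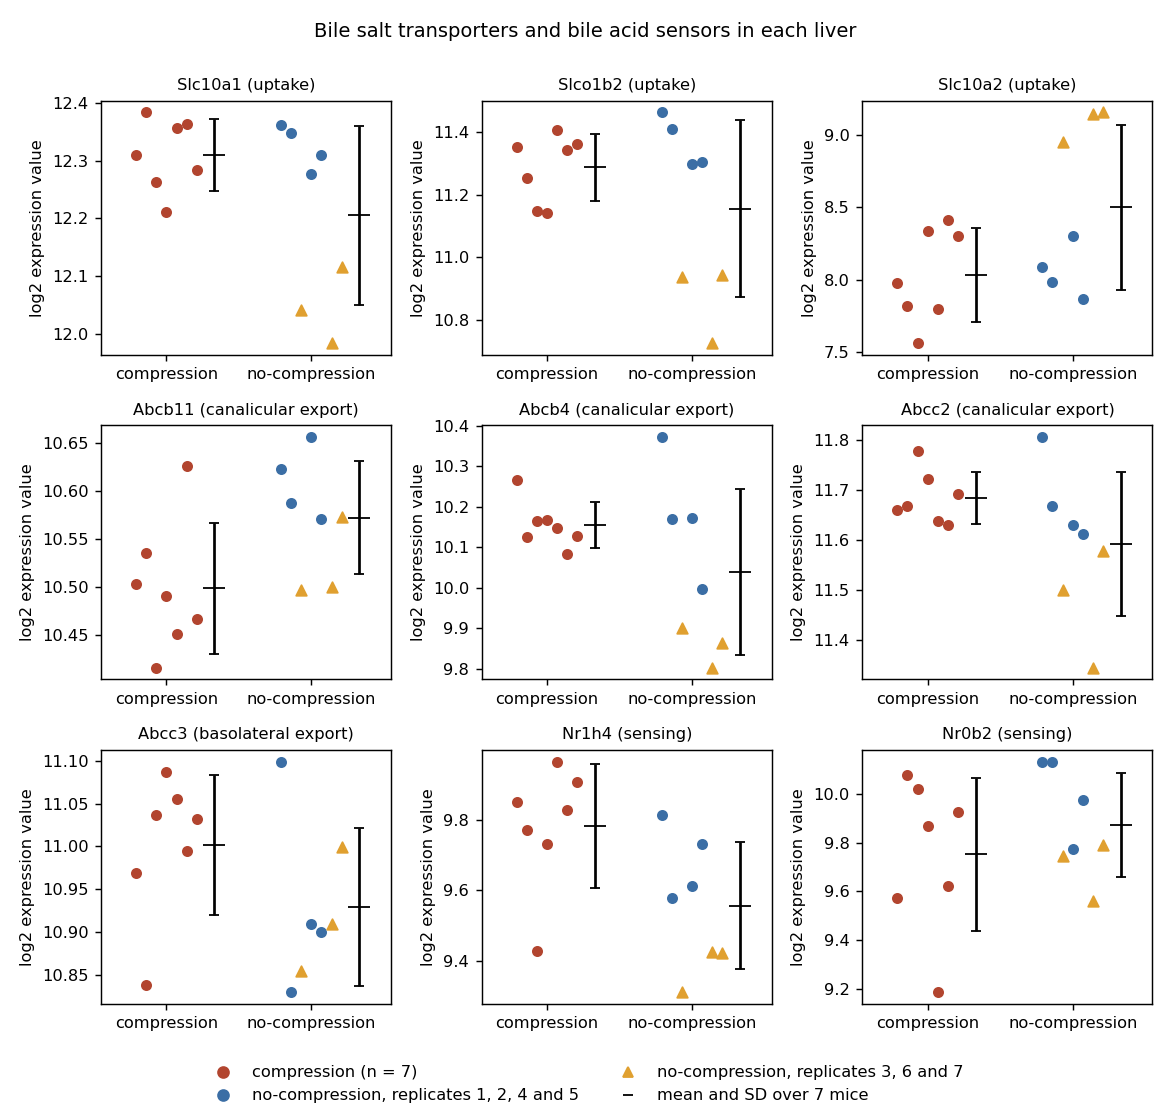
Log2 expression value (vertical axis) of the 9 genes with spread in each liver, with compression (n = 7) left of no-compression (n = 7), and the mean with its SD beside the points. The triangles, no-compression replicates 3, 6 and 7, are the lowest 3 of 14 for Slc10a1, Slco1b2, Abcb4, Abcc2 and Nr1h4 and the highest 3 for Slc10a2.

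Of the uptake transporters, Slc10a1 and Slco1b2 had slightly higher means with compression, and Slc10a2 a lower one. Slc10a1 was at log2 values of 12.31, 12.38, 12.26, 12.21, 12.36, 12.36 and 12.28 in compression replicates 1 to 7, against 12.36, 12.35, 12.04, 12.28, 12.31, 11.98 and 12.12 in no-compression replicates 1 to 7. The compression livers lie within a narrow band, which the no-compression livers share except for replicates 3, 6 and 7, the lowest of all 14. The means were 12.31 ± 0.0621 with compression and 12.21 ± 0.155 without it (SD, n = 7 each), a log2 fold change of 0.11 (95% interval −0.03 to 0.24, adjusted p = 0.943 from limma). Without the 3 low livers it was −0.01 (95% interval −0.09 to 0.06).

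Slco1b2 showed the same 3 livers at the bottom. It was at 11.35, 11.25, 11.15, 11.14, 11.41, 11.34 and 11.36 in compression replicates 1 to 7, against 11.46, 11.41, 10.94, 11.30, 11.31, 10.72 and 10.94 in no-compression replicates 1 to 7. The highest 2 livers, replicates 1 and 2 without compression, and the lowest 3 were all of the no-compression group. The log2 fold change was 0.13 (95% interval −0.11 to 0.38, adjusted p = 0.978 from limma), 0.06 without no-compression replicate 6 and −0.08 without all 3 low livers.

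Slc10a2 encodes ASBT, the sodium-dependent bile salt transporter of the ileum, which in liver is known from the cells that line the bile ducts (cholangiocytes). It had the largest difference among the 10 genes, with 7.98, 7.82, 7.56, 8.34, 7.80, 8.41 and 8.30 in compression replicates 1 to 7, against 8.09, 7.99, 8.95, 8.30, 7.87, 9.15 and 9.16 in no-compression replicates 1 to 7. Every compression liver was below the no-compression mean, but 4 of the 7 no-compression livers lay among them, and replicates 3, 6 and 7 stood above all others. The means were 8.03 ± 0.325 with compression and 8.50 ± 0.5678 without it (SD, n = 7 each), 0.722-fold, with a log2 fold change of −0.47 (95% interval −0.997 to 0.06, adjusted p = 0.943 from limma). It was −0.03 without these 3 livers (95% interval −0.42 to 0.36).

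Markers of cholangiocytes were read beside Slc10a2. Of 11 listed markers 8 were measured and 2 had spread, while the duct keratins Krt7 and Krt19, the adhesion molecule Epcam and the chloride channel Cftr had none, with means of 6.19, 5.75, 5.88 and 5.08. The water channel Aqp1 was at 9.01 to 9.40 with compression, and without it at 8.99 to 9.14 in replicates 3, 6 and 7, where Slc10a2 was highest, and at 9.16 to 9.36 in the others. Its log2 fold change was 0.09, and 0.0033 without the 3 livers. Prom1, a membrane glycoprotein of ductal and progenitor cells, was at 5.70 to 5.98 with compression, and without it at 7.01 to 7.59 in replicates 3, 6 and 7 and at 5.73 to 5.84 in the others. The mean level of the list was 6.33 to 6.34 with compression and 6.32 to 6.53 without it. This mean includes the markers without spread, which narrow its range. Of 6 markers of enterocytes and ileum, all measured, 2 had spread, and the ileal bile acid binding protein Fabp6 had none. Fabp2, a fatty acid binding protein of the intestine, was at 8.03 to 8.35 with compression, and without it at 7.75 to 8.18 in replicates 3, 6 and 7 and at 8.16 to 8.42 in the others. Apoa4, an apolipoprotein, was at 10.33 to 11.05 with compression and 10.42 to 10.80 without it. The mean level of the list, markers without spread again included, was 6.99 to 7.11 with compression and 7.01 to 7.12 without it. The part of either cell type in the values of Slc10a2 was not tested.

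Of the canalicular pumps, Abcb11 had a lower mean with compression, and Abcb4 and Abcc2 had higher ones. Abcb11 was at 10.50, 10.54, 10.42, 10.49, 10.45, 10.63 and 10.47 in compression replicates 1 to 7, against 10.62, 10.59, 10.50, 10.66, 10.57, 10.50 and 10.57 in no-compression replicates 1 to 7. Replicate 6 alone of the compression livers exceeded the no-compression mean, and 4 of the 7 lay below every no-compression liver. The means were 10.50 ± 0.0679 with compression and 10.57 ± 0.0588 without it (SD, n = 7 each), 0.950-fold. The log2 fold change was −0.07 (95% interval −0.15 to −0.0016, unadjusted p = 0.0459 and adjusted p = 0.943 from limma, exact permutation p = 0.0559, two-sided).

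Unlike the other canalicular pumps, Abcb11 did not have its lowest values in no-compression replicates 3, 6 and 7, which ranked 10, 9 and 5 from the top of the 14. Within the no-compression group these 3 livers lay toward the low end, at 10.50 to 10.57 against 10.57 to 10.66 in the others. Without these 3 livers the log2 fold change was −0.11 (95% interval −0.19 to −0.03, unadjusted p = 0.0132 and adjusted p = 0.919 from limma). In that setting 4.04% of the probe sets with spread had an unadjusted p under 0.05. With any 1 array left out the log2 fold change of Abcb11 lay between −0.10 and −0.06.

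Abcb4 encodes the floppase that delivers phosphatidylcholine to bile, which protects the ducts from bile salts. It was at 10.26, 10.12, 10.16, 10.17, 10.15, 10.08 and 10.13 in compression replicates 1 to 7, against 10.37, 10.17, 9.90, 10.17, 9.998, 9.80 and 9.86 in no-compression replicates 1 to 7. The no-compression livers hold both the highest value and the lowest 4, and the SD was 0.0563 with compression and 0.205 without it. The log2 fold change was 0.11 (95% interval −0.06 to 0.29, adjusted p = 0.954 from limma), and −0.02 without no-compression replicates 3, 6 and 7.

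Abcc2 encodes MRP2, which exports bilirubin glucuronides and other conjugates into bile. It was at 11.66, 11.67, 11.78, 11.72, 11.64, 11.63 and 11.69 in compression replicates 1 to 7, against 11.81, 11.67, 11.50, 11.63, 11.61, 11.34 and 11.58 in no-compression replicates 1 to 7. As for Abcb4, no-compression replicate 1 was the highest liver and replicate 6 the lowest, and the compression livers lay close together between them. The log2 fold change was 0.09 (95% interval −0.03 to 0.22, adjusted p = 0.943 from limma), and 0.0042 without the 3 no-compression livers.

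The basolateral pumps return bile salts and conjugates to blood. Abcc3 (MRP3) was at 10.97, 10.84, 11.04, 11.09, 11.06, 10.99 and 11.03 in compression replicates 1 to 7, against 11.10, 10.83, 10.85, 10.91, 10.90, 10.91 and 10.999 in no-compression replicates 1 to 7. In the compression group 6 of 7 livers exceeded the no-compression mean, while the highest and the lowest liver of all were no-compression replicates 1 and 2. The means were 11 ± 0.0821 with compression and 10.93 ± 0.0922 without it (SD, n = 7 each), a log2 fold change of 0.07 (95% interval −0.03 to 0.17, adjusted p = 0.943 from limma). It was also 0.07 without no-compression replicates 3, 6 and 7 (95% interval −0.06 to 0.20). Abcc4 (MRP4) was listed at 6.48 in each of the 14 livers, with an SD of 1e-05, so its probe set carries no information on a change.

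The sensors differed in direction, Nr1h4 with a higher and its target Nr0b2 with a lower mean in the compression group. Nr1h4 was at 9.85, 9.77, 9.43, 9.73, 9.96, 9.83 and 9.91 in compression replicates 1 to 7, against 9.81, 9.58, 9.31, 9.61, 9.73, 9.43 and 9.42 in no-compression replicates 1 to 7. In the compression group 4 of 7 livers lay above every no-compression liver, and replicate 3 lay down among the lowest no-compression livers. The means were 9.78 ± 0.176 with compression and 9.56 ± 0.180 without it (SD, n = 7 each), 1.17-fold. The log2 fold change was 0.23 (95% interval 0.02 to 0.43, unadjusted p = 0.0309 and adjusted p = 0.943 from limma, exact permutation p = 0.035, two-sided), and 6.62% of the probe sets with spread had an exact permutation p under 0.05.

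The difference in Nr1h4 was smaller without no-compression replicates 3, 6 and 7, the lowest 3 of the 14. It was then 0.10 (95% interval −0.11 to 0.31, adjusted p = 0.999 from limma). With any 1 array left out it lay between 0.19 and 0.29.

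Nr0b2 was at 9.57, 10.08, 10.02, 9.87, 9.19, 9.62 and 9.92 in compression replicates 1 to 7, against 10.13, 10.13, 9.75, 9.78, 9.98, 9.56 and 9.79 in no-compression replicates 1 to 7. The compression livers were widely spread, with replicate 5 the lowest of all 14 and replicate 2 close to the highest. No-compression replicates 3, 6 and 7 lay toward the low end of their group, at 9.56 to 9.79 against 9.78 to 10.13 in the others. Among all 14 livers they ranked 10, 13 and 8 from the top. The means were 9.75 ± 0.313 with compression and 9.87 ± 0.215 without it (SD, n = 7 each), a log2 fold change of −0.12 (95% interval −0.43 to 0.19, adjusted p = 0.979 from limma). It was −0.03 without compression replicate 5, and −0.25 without no-compression replicates 3, 6 and 7 (95% interval −0.63 to 0.12).

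**Figure D2:**
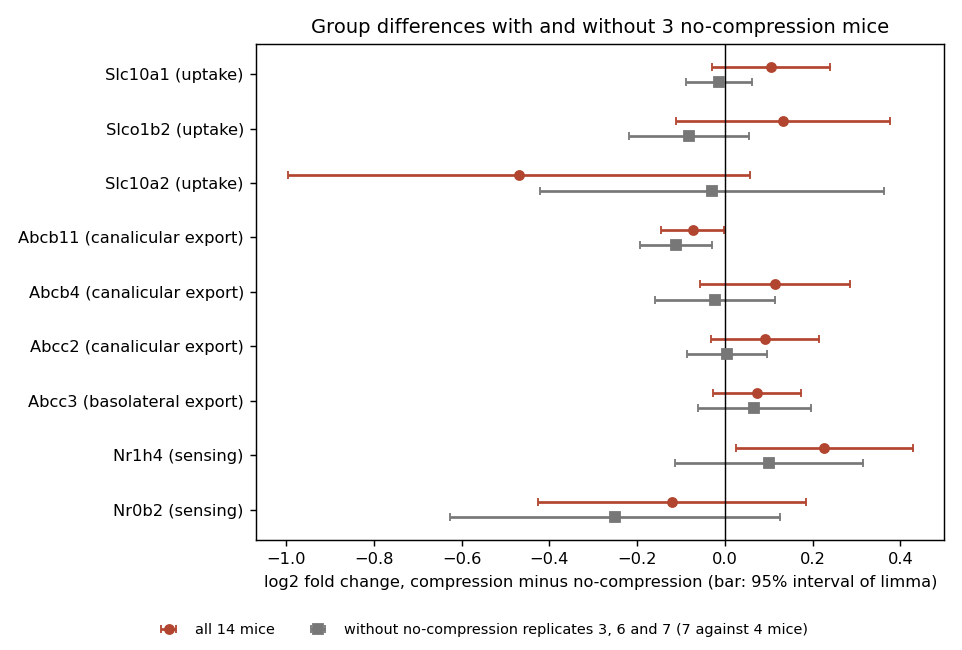
Log2 fold change, compression minus no-compression, of the 9 genes with spread, with the 95% interval of limma. Circles take all 14 mice and squares leave out no-compression replicates 3, 6 and 7. Slc10a1, Slco1b2 and Abcb4 are on opposite sides of 0 in the 2 settings, and Slc10a2 moves to −0.03 from −0.47. Slc10a2, Abcb11 and Nr0b2 lie below 0 in both, and of these Abcb11 alone has its whole interval below 0 in both.

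The rank products method, which the study's methods name and which was written out anew here, ranks probe sets against each other within pairs of arrays. At an FDR of 0.01 it called 277 probe sets higher (1.25% of 22206) and 261 lower (1.18%), in all 530 or 2.39%, since 8 were called in both directions. Of the probe sets with spread it called 41.8%, 21.9% as higher and 20.6% as lower, 8 of them in both. Against these shares, 6 of the 9 genes with spread were called, Nr1h4, Abcc2 and Abcc3 as higher and Slc10a2, Abcb11 and Nr0b2 as lower. The calls of Slc10a2, Abcb11 and Nr1h4 were kept with each of the 14 arrays left out in turn, that of Nr0b2 in 8 of 14, that of Abcc2 in 7 and that of Abcc3 in 2. Slc10a1, with an FDR of 0.0109 just over the limit, was called in 4 of these 14 removals. The share of all probe sets whose call was kept in these removals was not computed, so these counts have no background beside them. Without no-compression replicates 3, 6 and 7, 0 of the 10 genes were called, the lowest FDR being 0.0217 for Abcb11 and for Nr0b2, and 0.212% of all probe sets were called.

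Over all 14 livers some pairs of the genes ran together and others ran opposite. No pair passed the limit once the 3 no-compression livers that stood apart were left out. Of 36 pairs of the 9 genes with spread, 13 had a Pearson's r past an adjusted permutation p of 0.05 over the 14 arrays. Among the 13, r was negative for those with Slc10a2 and positive for the rest. By rho only Slc10a1 with Slco1b2 and Abcb4 with Abcc2 passed (adjusted permutation p = 0.0439 each). The share over pairs of other probe sets was not computed, so the count is not read as particular to these genes. Since these arrays form separate clusters, no pooled r is given. Over the other 11 livers 0 of 36 pairs passed and 2 had an unadjusted permutation p under 0.05. The highest was that of the uptake transporters Slc10a1 and Slco1b2, with r = 0.67 (permutation p = 0.024, adjusted p = 0.442), rho = 0.49 (permutation p = 0.13, adjusted p = 0.781) and r = 0.77 without the 2 livers farthest from the median of Slc10a1. Abcb4 and Abcc2 had r = 0.67 (permutation p = 0.0246, adjusted p = 0.442), rho = 0.51 (permutation p = 0.114, adjusted p = 0.781) and r = 0.12 without the 2 livers farthest from the median of Abcb4. The r of this pair thus fell with that removal, which also narrows the range of Abcb4.

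Within the 7 compression livers 1 of 36 pairs passed by r, Slco1b2 and Nr1h4, with r = 0.85 (exact permutation p = 0.001, adjusted p = 0.0357) and rho = 0.96 (exact permutation p = 0.0028, adjusted p = 0.1). It was r = 0.93 without the 2 livers farthest from the median of Slco1b2. Over the 11 livers this pair had r = 0.53 (permutation p = 0.0907, adjusted p = 0.626), rho = 0.44 (permutation p = 0.185, adjusted p = 0.863) and r = 0.23 without the 2 farthest. The receptor and its target, Nr1h4 and Nr0b2, had r = −0.55 over the 11 livers (permutation p = 0.0787, adjusted p = 0.626), rho = −0.54 (permutation p = 0.0938, adjusted p = 0.781) and r = −0.31 without the 2 farthest.

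**Figure D3:**
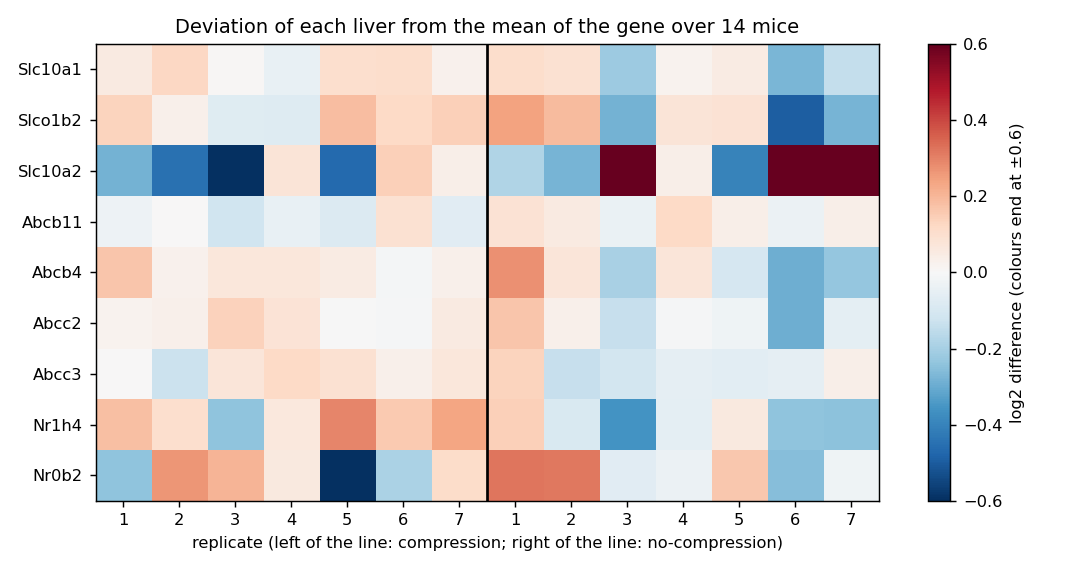
Deviation of each liver (columns, compression left of the line) from the mean of the gene over 14 mice, in log2 units, for the 9 genes with spread (rows). No-compression columns 3, 6 and 7 are blue for both hepatocyte uptake transporters, Abcb4, Abcc2 and Nr1h4 and red for Slc10a2, and compression column 5 is the lowest of the row of Nr0b2.

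Genes whose values ran most like those of a transporter or sensor were sought, for the 7 with an SD above 0.1, among 1073 named probe sets with spread, by Pearson's r over the 14 livers with each group centred on its own mean. This r is a description without a test, since it is the highest of many, and the value over the 11 livers without no-compression replicates 3, 6 and 7 stands after it. For Slc10a1 these were Akr1c14 (0.96 and 0.77), Pklr (0.96 and 0.76) and Hyi (0.96 and 0.91). For Slco1b2 they were Cat (0.96 and 0.91), Abcg2 (0.96 and 0.63) and Aldh3a2 (0.96 and 0.83). For Slc10a2 they were Cyp2b10, a drug-metabolizing cytochrome P450 (0.93 and 0.81), Ptprj (0.93 and 0.64) and Abhd2 (0.92 and 0.62).

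The canalicular pump Abcb4 ran with Eci2 (0.94 and 0.81), Slc25a20 (0.94 and 0.76) and Pex11a (0.94 and 0.87), which serve fatty acid oxidation and peroxisomes. Abcc2 ran with Slc49a4 (0.92 and 0.86), Acaa1a (0.92 and 0.57) and Gys2 (0.91 and 0.65), and Nr1h4 with Slc35a3 (0.91 and 0.76), Sec24a (0.91 and 0.79) and Ugt2b35 (0.90 and 0.71). Nr0b2 had less close companions, Grsf1 (0.74 and 0.71), Zbtb16 (0.72 and 0.70) and Kcnk5 (0.68 and 0.67), and these values moved little when the 3 livers were left out.

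Other carriers of bile acids, sterols and organic anions were divided in direction. Of 13 measured genes 7 had spread, 3 with a higher and 4 with a lower mean, and 0 passed in limma, with a median log2 fold change of −0.04 against −0.0029 over all probe sets with spread. Without no-compression replicates 3, 6 and 7, 4 had a higher and 3 a lower mean, and the median was 0.0093. Slco1a1, an organic anion carrier of the same family as Slco1b2, was at 10.93 ± 0.283 with compression and 10.22 ± 1.67 without it (SD, n = 7 each), and at 6.78 to 10.04 in no-compression replicates 3, 6 and 7 against 11.07 to 11.39 in the other no-compression livers. Its log2 fold change of 0.71 became −0.35 without them. Slc22a7, another organic anion carrier, had 0.42 and −0.10 in these settings, and Abcg2, an efflux pump of the canaliculus, 0.26 and 0.02. Atp8b1, the flippase that keeps the canalicular membrane stable, was at 8.54 ± 0.0725 with compression and 8.75 ± 0.199 without it (SD, n = 7 each), with a log2 fold change of −0.21 (unadjusted p = 0.02, adjusted p = 0.943 from limma) and −0.07 without the 3 livers. Slco1a4 had −0.07 and 0.0093. The basolateral bile salt exporter, formed by the products of Slc51a and Slc51b, had no spread, with means of 5.72 and 6.23.

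Genes of bile acid synthesis and conjugation had higher means more often than lower ones, 10 against 3 of the 13 with spread among 14 measured, with a median log2 fold change of 0.09, and 0 passed in limma. Without the 3 no-compression livers the count was 4 higher and 9 lower and the median −0.05. Cyp8b1, the enzyme that directs synthesis to cholic acid and that SHP restrains, had the largest difference, a log2 fold change of 1.07 that was 0.39 without these livers. Cyp7a1, the rate-limiting enzyme of the classical pathway and also restrained by SHP, was at 11.65 ± 0.262 with compression and 11.49 ± 0.270 without it (SD, n = 7 each), with log2 fold changes of 0.15 and 0.10. Cyp27a1 had 0.17 and −0.07, Cyp39a1 0.15 and −0.06, and Baat, which joins bile acids to taurine, 0.15 and −0.0015. The study names Cyp7a1, Cyp27a1 and Baat among its DEGs on these same arrays, so their directions here are no independent evidence.

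Among partners and upstream regulators of FXR and the receptors of the FGF15 signal, 17 of 18 listed genes were measured and 4 had spread, 3 with a higher and 1 with a lower mean both with and without the 3 livers (median log2 fold change 0.12 with and 0.07 without them), and 0 passed in limma. Rxra, the dimer partner of FXR, and Hnf4a, which maintains hepatocyte transporters, had no spread, nor had Fgfr4, Klb and Fgf15. Nr1i3 (CAR), a receptor that induces Cyp2b10 and drug transporters, was at 10.85 ± 0.159 with compression and 10.35 ± 0.537 without it (SD, n = 7 each), with a log2 fold change of 0.50 (adjusted p = 0.943 from limma) and 0.08 without the 3 livers. It was at 9.63 to 9.97 in no-compression replicates 3, 6 and 7, where Slc10a2 was highest, and at 10.73 to 10.85 in the other no-compression livers. Ppara, the fatty acid sensor, had 0.23 and 0.07, Ppargc1a, a coactivator, 0.01 and 0.12, and Nr5a2 (LRH-1), which SHP represses, −0.02 and −0.0028.

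Of 12 further genes listed as FXR targets in liver 11 were measured and 7 had spread, 1 with a higher and 6 with a lower mean, a median log2 fold change of −0.03, and 0 passed in limma. Without the 3 no-compression livers 5 had a higher and 2 a lower mean, and the median was 0.03. Sdc1, a proteoglycan that takes up lipoprotein remnants, had −0.32 and 0.10, Nedd4l, a ubiquitin ligase, −0.15 and −0.01, Fetub −0.04 and 0.03, Osgin1 −0.03 and −0.175, and Fgb, a chain of fibrinogen, −0.02 and 0.05.

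**Figure D4:**
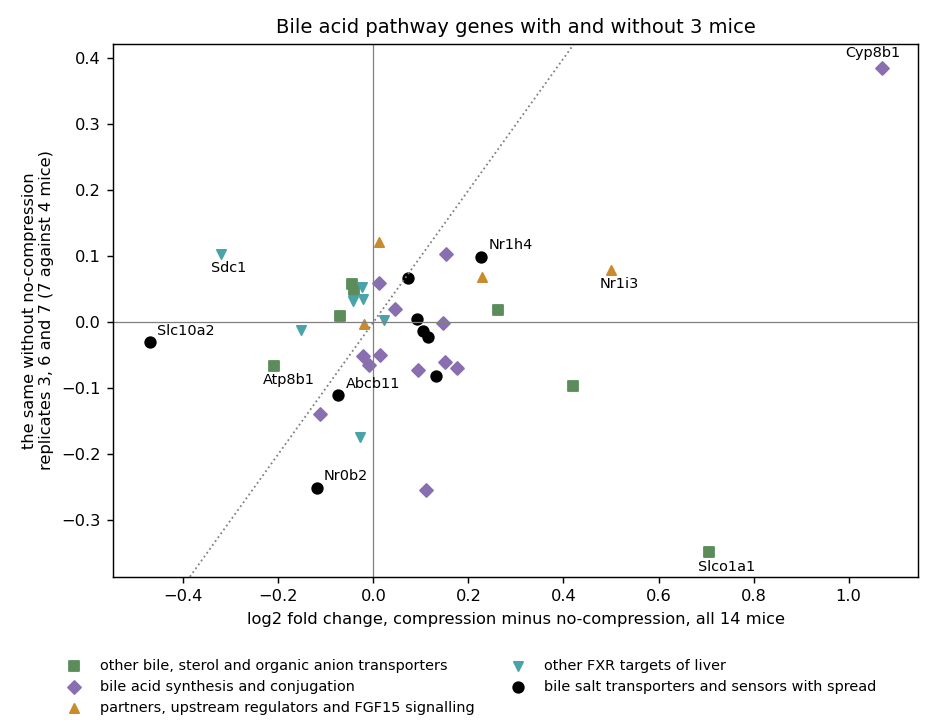
Log2 fold change, compression minus no-compression, over all 14 mice (horizontal axis) and without no-compression replicates 3, 6 and 7 (vertical axis), for the bile salt transporters and sensors (black) and the genes of 4 lists of the pathway that had spread. Points on the dotted line have the same value in both settings. Slco1a1, at 0.71 and −0.35, and Slc10a2, at −0.47 and −0.03, lie far from the line. Slc10a2, Abcb11 and Nr0b2 lie below 0 on both axes.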

How the data were processed

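Livers of 14 mice were measured on Clariom S arrays, cDNA being made from 200 ng of total RNA. The deposited table holds log2 values from qFarms, which the authors ran in R 3.4.4, the version in the submitters' processing notes (quantile normalization, then factor analysis of each set of probes). They were used unchanged. This summary hides changes in probe sets left without spread and cannot be undone here. Of 29129 rows 6923 controls were left out. The platform's annotation named 1 gene for 19572 probe sets, several for 0 and none for 2634. Groups came from the sample titles. Compression was compared with no-compression by limma 3.58.1 in R 4.3.3 (lmFit, eBayes, Benjamini-Hochberg over 22206 probe sets), the main test because the package of the methods' rank products was not at hand. Rank products (49 random pairings of arrays, null of independent ranks, FDR 0.01) were written in Python 3.11.15 with numpy 2.4.6, pandas 2.3.3 and scipy 1.17.1. Permutation tests were two-sided. Those between the groups were exact over 3432 splits. Those of relations were exact over all orders of the 7 compression livers and drawn 100000 times in the larger sets. Relations were adjusted over 36 pairs in each set of arrays. The p-values of limma and of the permutation tests measure the spread between these mice. The FDR of rank products rests on the null of independent ranks of probe sets and does not measure that spread. The limma script was tested on simulated data. The genes and lists were chosen with earlier results of these data known, as was the removal of no-compression replicates 3, 6 and 7. All 10 genes are named, and from each list up to 5 genes with spread by size of the log2 fold change. Any others were named for their role. Figures were drawn with matplotlib 3.10.9.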

Additional observations from a re-analysis of the deposited data

How the results depend on the processing

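The count of genes past the limit of limma stayed at 0 of 10 under median centring, quantile normalization, both filters, eBayes with trend and robust settings, the replicate number as a block and every removal of arrays tried. It was 6 with rank products and 1 (Nr1h4) with the exact permutation test at an unadjusted p under 0.05. Leaving out no-compression replicates 3, 6 and 7 together gave 3 genes with a higher and 6 with a lower mean in place of 6 and 3, and 0 pairs of genes past the limit in place of 13. It turned the log2 fold change of Slc10a1 to −0.0137, that of Slco1b2 to −0.0824 and that of Abcb4 to −0.023. These 3 livers lie farthest from the others on the first component, and the cause was not tested. Of the genes with spread, 0 turned direction with any 1 array left out or under another normalization. Abcc4, without spread, turned to 0.000537 under median centring and 0.000716 under quantile normalization, and lay between −3.38e-06 and 3.04e-06 with 1 array left out, and the filters removed it. No pairing by equal replicate numbers was seen. Deviations of equal numbers correlated between −0.49 and 0.34, and 1 of 7 compression livers correlated best with its own number. So few livers cannot exclude a pairing. With the replicate number as a block, 0 genes passed. Each gene had 1 probe set, so the other choice of probe set was not run. The number of mice, 7 a group, limits what can be called after adjustment over 22206 probe sets.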
